A study of Mus musculus with 10 samples.

Results

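The kinesin, dynein and dynactin genes studied here are those whose symbol in the platform annotation begins with Kif followed by a digit or c, or with Klc, Dync, Dynl or Dctn, and whose probe sets have values on both array designs. They held 37 probe sets. Of these, 35 carried a single symbol and stood for 28 genes, out of 7417 named genes on the 9977 shared probe sets, and 2 carried several symbols of the Dynlt1 family and are given without a gene name. By known role, 13 genes were grouped as transport kinesins and their light chains, 4 as mitotic kinesins, and 11 as dynein and dynactin subunits. The transport group also holds Kif2a, which takes microtubule ends apart, and Kif9, a kinesin of motile cilia.

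Mouse primary cortical neurons were cultured from foetal cortices of Swiss albino mice at gestation day 15 to 16. The groups were 1 µM lactacystin for 24 h (3 arrays), its control at 24 h (2 arrays), 1 µM lactacystin for 48 h (3 arrays) and its control at 48 h (2 arrays). Lactacystin, an inhibitor of the proteasome, was given on day 5 in vitro in serum-free medium from a stock in DMSO. It is not stated whether control cultures got DMSO, or whether replicates came from separate cultures. P-values therefore describe the spread among these arrays, which may be technical. All values are scaled microarray signals in arbitrary units, and log2 changes are lactacystin minus control on the log2(signal + 32) scale with the standard error (SE). "Rose" and "fell" are used only where the limma test, adjusted over all 6984 probe sets tested, gave a p under 0.05.

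Kinesins and cytoplasmic dynein are motor proteins that use ATP to walk along microtubules. In neurons, kinesin heavy chains carry vesicles, mitochondria and other cargo outward along the axon, often through light chains that bind the cargo, while dynein, working with its cofactor dynactin, carries cargo back to the cell body. A separate set of kinesins is best known from dividing cells, where it builds the spindle, moves chromosomes and closes the cleavage furrow.

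Whole-series features bear on these values. Of the 10 arrays, 4 were of the U74A design (lactacystin 24 h replicate 1, control 24 h replicate 1, lactacystin 48 h replicate 3 and control 48 h replicate 1) and 6 of its revision U74Av2, and the design was a covariate in every test. Anything else that differed between the 2 sets of arrays cannot be told apart from the design. No array pair held identical values, median deposited signals ran from 159 to 235.1, and each array had 19.9% to 27.8% of its probe sets under the 32 that was added before taking logs. Of the 10 neuron markers looked for, Stmn2, Snap25, Syt1, Map2, Gad1, Nefl and Nefm had a shared probe set, and all 7 passed the filter on low signal. Astrocyte and radial glia markers were present too, with 7 of the 8 measured passing it, so that the cultures were not shown to be neurons alone. In RNA from whole cultures, fewer cells of a type and less RNA per cell cannot be told apart.

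The promoters of the 4 mitotic kinesins are shown first because all 4 held TTTGAA, which few promoters of the other motor genes did. Each is the RefSeq window of 300 bases, 250 before and 50 after the annotated start, from assembly GRCm38.p6, written 5′ to 3′ in the direction of the gene. Capitals mark TTTGAA (the cell cycle homology region, CHR) and CCAAT on either strand, so that TTCAAA and ATTGG are the same motifs on the other strand. In mitotic genes in general, CHR elements and CCAAT boxes are bound by MuvB complexes such as DREAM and by NF-Y. Kif23 lies at chr9:61946750-61947049, reverse strand, Kif4 at chrX:100625815-100626114, forward strand, Kifc1 at chr17:33890584-33890883, reverse strand and Kif22 at chr7:127042371-127042670, reverse strand. The promoter of the neuronal transport kinesin Kif3c, at chr12:3364882-3365181, forward strand, is shown for contrast.
Kif23: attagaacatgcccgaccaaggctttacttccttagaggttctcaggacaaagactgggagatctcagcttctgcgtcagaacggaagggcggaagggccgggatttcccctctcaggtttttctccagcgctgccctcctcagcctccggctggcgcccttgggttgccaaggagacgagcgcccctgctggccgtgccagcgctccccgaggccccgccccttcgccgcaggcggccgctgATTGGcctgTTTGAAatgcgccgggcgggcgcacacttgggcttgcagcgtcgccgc
Kif4: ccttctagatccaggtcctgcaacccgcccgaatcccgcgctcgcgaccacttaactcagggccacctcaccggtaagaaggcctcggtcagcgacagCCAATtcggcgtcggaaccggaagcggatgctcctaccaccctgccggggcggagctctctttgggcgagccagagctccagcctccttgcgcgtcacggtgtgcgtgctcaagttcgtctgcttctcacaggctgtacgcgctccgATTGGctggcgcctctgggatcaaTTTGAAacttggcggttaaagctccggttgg
Kifc1: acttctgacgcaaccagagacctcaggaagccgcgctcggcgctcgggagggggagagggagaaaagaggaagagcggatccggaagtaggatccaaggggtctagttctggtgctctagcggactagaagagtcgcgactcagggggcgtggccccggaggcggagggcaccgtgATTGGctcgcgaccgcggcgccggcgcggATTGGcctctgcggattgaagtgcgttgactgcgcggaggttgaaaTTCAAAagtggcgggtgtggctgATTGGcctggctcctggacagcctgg
Kif22: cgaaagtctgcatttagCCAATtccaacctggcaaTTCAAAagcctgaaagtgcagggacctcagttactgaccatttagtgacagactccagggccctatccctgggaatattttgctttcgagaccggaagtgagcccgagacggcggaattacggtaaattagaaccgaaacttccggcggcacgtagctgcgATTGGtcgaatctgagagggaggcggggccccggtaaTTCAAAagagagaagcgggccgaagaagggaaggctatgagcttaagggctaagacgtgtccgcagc
Kif3c: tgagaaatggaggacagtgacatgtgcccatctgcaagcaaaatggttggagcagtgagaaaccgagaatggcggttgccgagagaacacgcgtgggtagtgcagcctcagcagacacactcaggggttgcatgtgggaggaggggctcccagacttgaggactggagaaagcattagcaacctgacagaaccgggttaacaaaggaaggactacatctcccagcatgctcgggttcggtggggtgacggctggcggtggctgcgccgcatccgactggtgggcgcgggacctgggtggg

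All 4 mitotic kinesin promoters held both motifs. Counted from 1 at the annotated start, TTTGAA began at position 3 in Kif23 and 20 in Kif4, and on the other strand at position 2 in Kifc1 and at -17 and -215 in Kif22. Over all 32851 promoters of the table, 17.9% held TTTGAA, 37.4% held CCAAT, 6.95% held both and 4.94% held TTTGAA within 50 bases of the start. Of the other motor genes, 10 transport genes had 14 promoters, and 1 of these (7.14%), in Kif1a, held TTTGAA. The 10 dynein and dynactin genes with an entry had 13 promoters, and 1 (7.69%), in Dctn1, held it. CCAAT was in 4 of the 14 transport promoters (28.6%) and 4 of the 13 dynein and dynactin promoters (30.8%). The Kif3c window shown above held neither motif. No promoter was listed for Kif5a, Kifc2, Kifc3 or Dynll2. These matches describe letters in a fixed window, and no binding was measured.

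The 4 mitotic kinesins had almost the same signals in lactacystin cultures and controls at 24 h, and 2 of the 4 rose at 48 h. At 24 h their log2 changes lay between 0.01 and 0.07, with a median of 0.04, and none passed the test. At 48 h all 4 changes were positive, from 0.35 to 0.84 with a median of 0.70, against a median of 0.04 over all named genes tested. Kifc1 passed the filter only through its 48 h lactacystin signals, so its change there adds no support. The other 3 changes were 0.35 (Kif22), 0.61 (Kif4) and 0.84 (Kif23). On the U74Av2 arrays alone the median of the 4, Kifc1 included, was 0.46. Among all named genes, 8.66% rose at 24 h and 7.13% at 48 h.

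Kif23 encodes the motor of the centralspindlin complex, which bundles midzone microtubules in cytokinesis. Its signals at 48 h were 316, 207 and 534 with lactacystin, against 229 and 158 in control. The highest of the 5 was the U74A array with lactacystin, and the lowest lactacystin array lay below the U74A control, so the groups overlapped. Within each design every lactacystin array exceeded the control, on average by 1.12 on U74A and 0.60 on U74Av2 (log2). Of all named genes, 2102 of 5541 also had positive average changes within both designs at 48 h. The fitted change was 0.84 ± 0.19 with an adjusted p of 0.0164. At 24 h the signals were 409, 191 and 184 with lactacystin, against 372 and 179 in control, a change of 0.07 ± 0.19 (adjusted p = 0.844). The Kif23 call at 48 h was lost in 5 of 24 alternatives: without lactacystin 48 h replicate 3 (adjusted p = 0.0537) or control 48 h replicate 1 (0.158), on the U74Av2 arrays alone (0.211), on the 48 h arrays alone (0.0609) and without the design covariate (0.598).

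Kif4, a chromokinesin that binds chromosome arms and limits microtubule growth in the spindle midzone, had signals of 298, 277 and 316 with lactacystin at 48 h, against 144 and 224 in control. All 3 lactacystin arrays lay above both controls. The groups of 17.6% of all named genes were separated in that direction at 48 h. The change was 0.61 ± 0.17, with an adjusted p of 0.0382, and was 0.99 on U74A and 0.32 on U74Av2. At 24 h Kif4 signals were 202, 232 and 218 with lactacystin, against 209 and 215 in control, with the groups overlapping. The Kif4 call was less firm than that of Kif23: it was lost in 14 of 24 alternatives, with adjusted p-values of up to 0.293, including scaling to the array median (0.102) and quantile normalization (0.0981). Leaving out any 1 array ended it except lactacystin 24 h replicate 1, lactacystin 48 h replicate 2 or control 48 h replicate 2, with the highest adjusted p without control 48 h replicate 1 (0.283), where the change was 0.37. On the U74Av2 arrays alone the change was 0.32.

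Kifc1 is a minus-end-directed kinesin that focuses spindle poles. It had signals of 46.8, 93.8 and 146 with lactacystin at 48 h, against 50.2 and 33.9 in control. Of the lactacystin arrays, 2 exceeded both controls and 1 did not. The change of 0.79 ± 0.25 did not pass (adjusted p = 0.0698). Its mean signal of 61.4 over all arrays was close to the filter's limit of 54.7. It averaged 95.4 with lactacystin at 48 h and 42.0 to 49.4 in the other groups. It thus passed the filter only through the group where it was high. Its probe set is of a type that the platform marks as shared between similar sequences, so that its gene is uncertain. At 24 h the signals were 59.7, 42.2 and 43.0 with lactacystin, against 60.8 and 37.9 in control.

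Kif22, the chromokinesin that pushes chromosome arms away from the poles, had the smallest change of the 4. Its signals at 48 h were 1264, 1045 and 1553 with lactacystin, against 974 and 1061 in control, and the lowest lactacystin value lay between the controls. The change was 0.35 ± 0.14 (adjusted p = 0.141). At 24 h the signals were 1218, 976 and 939 with lactacystin, against 1154 and 969.6 in control, and the change was 0.01 ± 0.14.

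**Figure D1:**
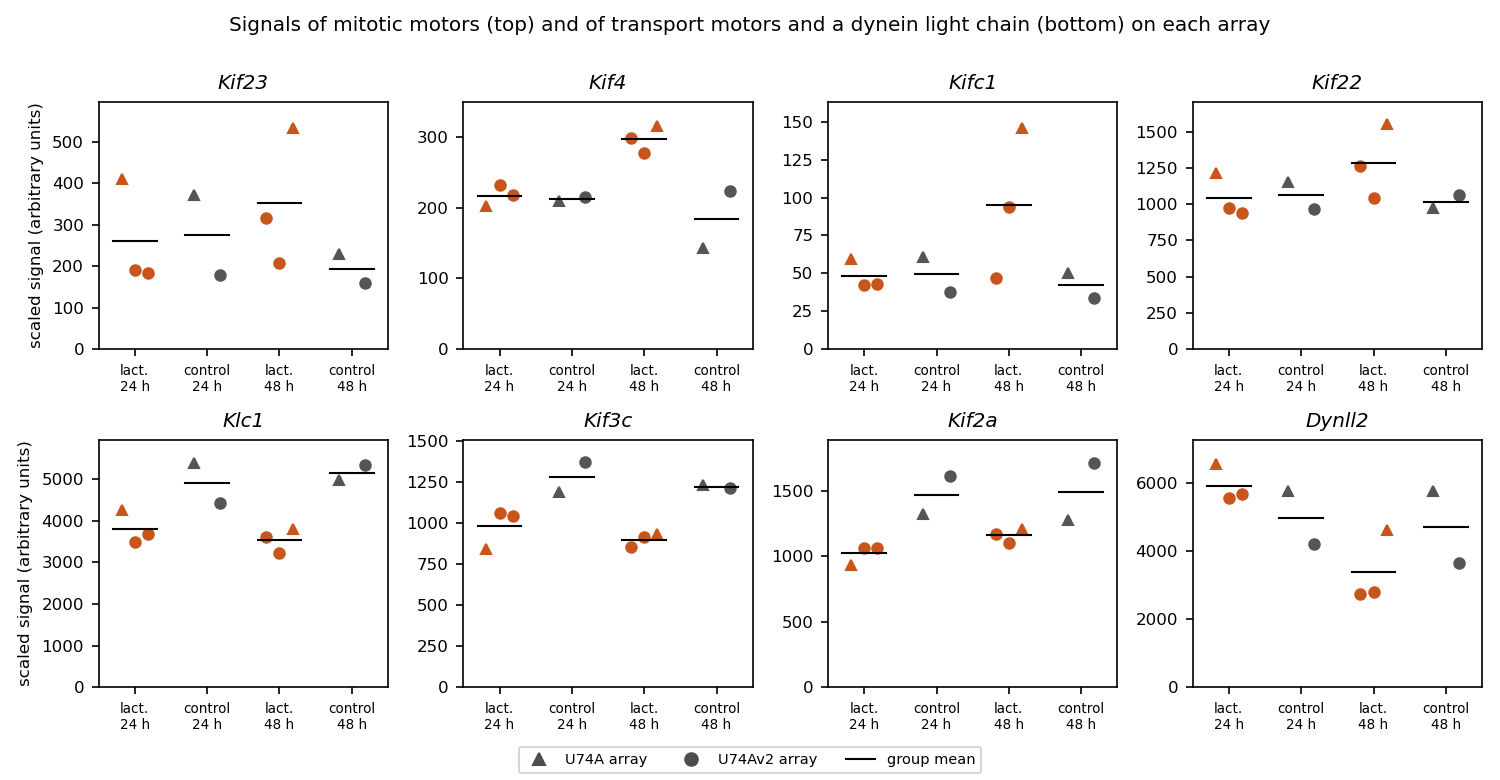
Scaled signal (arbitrary units, axes from 0) of 8 motor genes on each array, by agent and time, with U74A arrays as triangles, U74Av2 arrays as circles and group means as lines. In the top row the 48 h lactacystin means exceed the 48 h control means for Kif23, Kif4, Kifc1 and Kif22, and in the bottom row every lactacystin value of Klc1, Kif3c and Kif2a lies below the controls of the same time.

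The test of whether the effect differed between the times was not passed by any of the 4. The effect at 48 h minus that at 24 h was 0.77 ± 0.26 for Kif23 (adjusted p = 0.177), 0.73 ± 0.35 for Kifc1 (0.341), 0.60 ± 0.23 for Kif4 (0.229) and 0.34 ± 0.20 for Kif22 (0.427). The 95% interval for Kif23 ran from 0.20 to 1.35. From 24 h to 48 h the changes were positive for all 4 with lactacystin, from 0.28 (Kif22) to 0.60 (Kifc1), and negative for all 4 in control, from -0.06 (Kif22) to -0.39 (Kif23). None of these changes with time passed the test, and the values of Kifc1 add no support because of how it passed the filter.

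Genes that act with the mitotic kinesins in the spindle and in cytokinesis were tested from a fixed list. Of 35 listed, 27 were tested. None was called at 24 h, where the median change was -0.08. At 48 h 11 rose and none fell, 26 of the 27 changes were positive, and the median was 0.56. Of all named genes, 7.13% rose at 48 h and 3066 of 5541 changes were positive, with a median of 0.04. In the test of the effect at 48 h minus that at 24 h none of the 27 passed, against 1.25% of all named genes, and the differences had a median of 0.65. The largest were Ect2, the exchange factor that centralspindlin recruits to the cell equator (1.25 ± 0.21, adjusted p = 0.00408), the DNA topoisomerase Top2a (0.99 ± 0.19), the proliferation marker Mki67 (0.89 ± 0.19) and the checkpoint kinase Bub1 (0.86 ± 0.21). Cell cycle genes were part of earlier work on these arrays, so the list is not independent of what was known. The count of 11 rested on control 48 h replicate 1 and on the design covariate: it was 1 without that array, 6 without lactacystin 48 h replicate 3, and 0 on the U74Av2 arrays alone or without the covariate. It was 7 without a filter and 6 on the 48 h arrays alone. Changes remained mostly positive, in 24 of 27 partners without control 48 h replicate 1 and on the U74Av2 arrays, with medians of 0.37 and 0.35.

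The direct partners of the 2 kinesins that rose were looked up after their values were seen. Prc1, which recruits Kif4 to the midzone, averaged 773 with lactacystin and 471 in control at 48 h, and rose by 0.69 ± 0.14 (adjusted p = 0.0101). Racgap1, the other subunit of centralspindlin, averaged 524 with lactacystin and 398 in control, a change of 0.41 ± 0.14 that did not pass (adjusted p = 0.0827). At 24 h the changes were -0.02 ± 0.14 for Prc1 and -0.27 ± 0.14 for Racgap1. The summed signal of the 29 measured partners was 13188 to 17165 with lactacystin at 48 h and 9451 to 10568 in control, and at 24 h it was 10859 to 11645 with lactacystin and 11050 to 11814 in control. Of 25 promoters listed for the tested partners, 17 (68.0%) held TTTGAA.

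**Figure D2:**
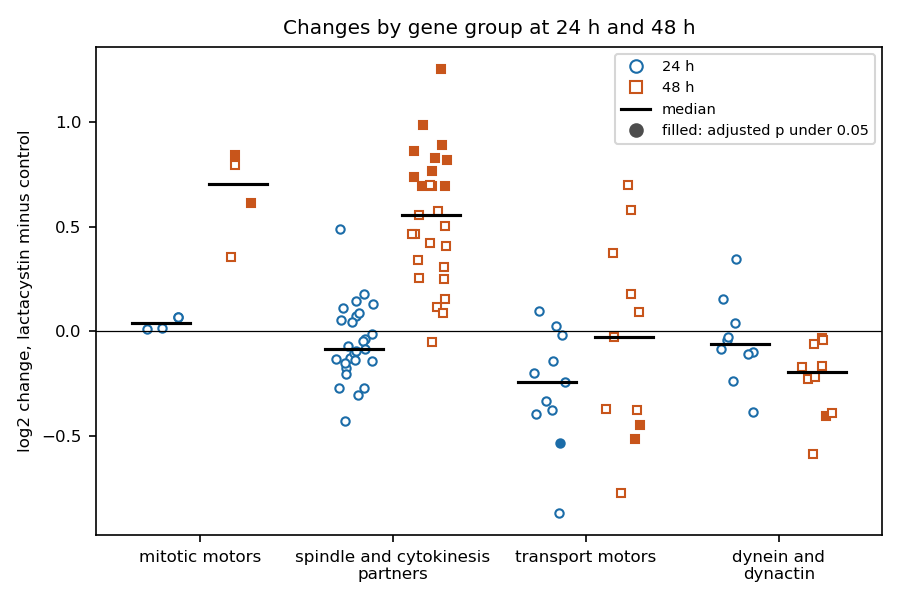
Log2 change (lactacystin minus control, log2(signal + 32) scale) of each tested gene at 24 h (circles) and 48 h (squares) in 4 gene groups, with medians as lines and filled symbols for an adjusted p under 0.05. Mitotic kinesins and their partners lie around 0 at 24 h, with medians of 0.04 and -0.08, and mostly above it at 48 h, with medians of 0.70 and 0.56. The mitotic median of 0.70 includes Kifc1, which passed the filter only through its 48 h lactacystin signals and adds no support. Without it the mitotic changes at 48 h are 0.35, 0.61 and 0.84. Transport medians are -0.24 and -0.03 and dynein medians -0.06 and -0.19 at 24 h and 48 h.

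Markers of other cell types were also called at 48 h. At 48 h 3 of 7 tested astrocyte and radial glia markers rose, with a summed signal over 8 measured genes of 15305 to 18606 with lactacystin and 12235 to 18079 in control. Of 6 tested microglia and macrophage markers 3 rose, with sums over 10 genes of 995 to 1594 with lactacystin and 517 to 1065 in control. Of 6 tested fibroblast and mural markers 2 rose, Acta2 and Tagln, with sums over 7 genes of 2070 to 3829 with lactacystin and 1195 to 1269 in control. Of 7 neuron markers 2 fell, Stmn2 and Snap25, with sums of 11811 to 20919 with lactacystin and 19332 to 23760 in control. The dimmest were S100b among the astrocyte markers, Itgam among the microglial markers and Col1a2 among the fibroblast markers, with mean signals of 36.5, 7.97 and 37.1. No oligodendrocyte (2 tested), endothelial (2), ciliated (1) or erythroid (1) marker was called at either time. At 24 h 1 astrocyte marker rose and 2 fell, 1 microglial and 1 fibroblast marker rose, and 2 neuron markers fell. Among all named genes, 8.66% rose and 6.68% fell at 24 h, and 7.13% rose and 3.7% fell at 48 h. The marker counts were not recomputed under the alternatives. The part of these cells in the motor gene changes was not tested.

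Of the 13 transport genes, 11 passed the filter on low signal. The median change was -0.24 at 24 h, with 9 of 11 negative, and -0.03 at 48 h, with 6 of 11 negative, against medians of -0.03 and 0.04 over all named genes. At 24 h 1 fell and none rose, and at 48 h 2 fell and none rose. Over both times together 3 fell, Klc1, Kif2a and Kif3c. Among all named genes, 6.68% fell at 24 h, 3.7% at 48 h and 7.74% over both times. The 48 h median depended on single arrays, on the filter and on the design covariate. It was -0.28 without lactacystin 48 h replicate 2, -0.15 without lactacystin 48 h replicate 1 and 0.08 without lactacystin 48 h replicate 3. It was 0.05 without control 48 h replicate 1 and -0.21 without control 48 h replicate 2, where 8 of 11 were negative. Minus the median of all tested probe sets, it was -0.07 in the main fit. That difference was -0.39 with a filter leaving out the lowest 50%, which kept 8 of the genes, and -0.36 without the design covariate. The 24 h median was -0.15 without control 24 h replicate 1, where 10 of 11 were negative. At 24 h 6 of 11 were negative without lactacystin 24 h replicate 1 and 7 of 11 with array quality weights. In the test of the difference between the times none of the 11 passed. Summed neuron marker signals were 10289 to 14716 with lactacystin at 24 h, against 15647 to 22054 in control.

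Klc1 encodes the light chain that links conventional kinesin to its cargo. Its brightest probe set read 3615, 3228 and 3812 with lactacystin at 48 h, against 4995 and 5337 in control. At 24 h it read 4259.5, 3504 and 3681 with lactacystin, against 5406 and 4426 in control. All 6 lactacystin arrays lay below all 4 controls. The share of all named genes separated so over both times was not computed. At single times 19.1% (24 h) and 10.6% (48 h) were lower without overlap. The change was -0.51 ± 0.11 at 48 h (adjusted p = 0.0120), -0.34 ± 0.11 at 24 h (0.0572) and -0.42 ± 0.08 over both times (0.00448). At 48 h alone the call was lost without control 48 h replicate 2 (adjusted p = 0.218) and without the design covariate (0.0952), whereas over both times it was lost in none of 23 alternatives.

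The other Klc1 probe sets did not follow the brightest. At 48 h one, of the same shared type as that of Kifc1, read 1764, 1593 and 1373 with lactacystin, against 1263 and 1162 in control, and the other 719, 787 and 755 with lactacystin, against 748 and 589.7 in control. Their changes were 0.31 ± 0.16 (adjusted p = 0.272) and 0.21 ± 0.13 (0.367), both opposite in sign to the brightest probe set. The fall thus applies to the transcripts that the first probe set reads, and which Klc1 transcripts these are was not tested.

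Kif2a is a kinesin that takes microtubule ends apart and limits the growth of axon side branches, and it was grouped with the transport genes for its role in neurons. It was the only motor gene called at 24 h (1 of 25, against 15.3% of all named genes). Its signals there were 938, 1062 and 1068 with lactacystin, against 1323 and 1618 in control. At 48 h they were 1173, 1105 and 1208 with lactacystin, against 1279 and 1714 in control. No lactacystin value reached a control value of the same time. Of all named genes, 19.1% at 24 h and 10.6% at 48 h were lower without overlap. The share separated at both times was not computed. The change was -0.54 ± 0.13 at 24 h (adjusted p = 0.0154), -0.37 ± 0.13 at 48 h (0.0864) and -0.45 ± 0.09 over both times (0.00672). At 24 h the call was lost without control 24 h replicate 1 (adjusted p = 0.0511) or replicate 2 (0.187) and without the design covariate (0.127), and over both times it was lost in none of 23 alternatives.

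Kif3c is a heavy chain of heterotrimeric kinesin-2 that is made chiefly in neurons. It read 851, 916 and 930.2 with lactacystin at 48 h, against 1228 and 1212 in control. At 24 h it read 838, 1058 and 1039.6 with lactacystin, against 1189.8 and 1369 in control. Again all 6 lactacystin values lay below all 4 control values, a separation whose share over all named genes was not computed. The change was -0.45 ± 0.12 at 48 h (adjusted p = 0.0409), -0.40 ± 0.12 at 24 h (0.0513) and -0.42 ± 0.09 over both times (0.00761). The 48 h call was lost in 14 of 24 alternatives, among them leaving out any 1 array except lactacystin 24 h replicate 1 or lactacystin 48 h replicate 3, with an adjusted p of up to 0.229 (without control 48 h replicate 1), and the one over both times in 1 of 23, on the U74Av2 arrays alone (0.0544).

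Kif3a, the usual partner of a second heavy chain in kinesin-2, did not pass the test at either time. Its signals at 48 h were 233, 168 and 214 with lactacystin, against 219.5 and 146 in control, and its change was 0.18 ± 0.19, with a 95% interval from -0.23 to 0.59. Kifap3, the non-motor subunit of the same kinesin, fell at 24 h (-0.57 ± 0.10, adjusted p = 0.00330) and had a change of -0.33 ± 0.10 at 48 h (0.0590).

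Kif1a, Kif5a and Kif5c are the kinesins best known for axonal transport, Kif1a for synaptic vesicle precursors and the Kif5 genes as heavy chains of conventional kinesin. Their signals differed widely between the U74A and U74Av2 arrays. Kif1a averaged 791 on the 4 U74A arrays and 60.4 on the 6 U74Av2 arrays, a ratio of 13.1. The ratio was 7.28 for Kif5a (497 on U74A and 68.3 on U74Av2) and 30.4 for Kif5c (607 on U74A and 20.0 on U74Av2). The value of 32 added before taking logs compresses changes at such low U74Av2 signals.

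Kif1a read 39.0, 10.7 and 709 with lactacystin at 48 h, the last of these on U74A, against 903 and 78.5 in control, the first on U74A. Both U74Av2 lactacystin values at 48 h were below 54.7, and between the U74A arrays the change was -0.34. The fitted change of -0.77 ± 0.27 did not pass (adjusted p = 0.0961), and at 24 h it was -0.14 ± 0.27.

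Kif5c read 7.70 to 44.9 on the 6 U74Av2 arrays, all below the limit of 54.7 that the filter set on the mean signal, and passed it through the U74A arrays. Its signals at 24 h were 316, 8.9 and 12.8 with lactacystin, the first on U74A, against 817 and 33.7 in control, the first on U74A. The change was -0.87 ± 0.29 (adjusted p = 0.0661), with -1.29 between the U74A arrays. At 48 h the signals were 44.9, 7.7 and 613 with lactacystin, against 681 and 11.9 in control, and the change was 0.09 ± 0.29. Kif5a had changes of -0.38 ± 0.27 at 24 h and -0.38 ± 0.27 at 48 h, and neither passed. At 24 h its lactacystin array on U74A read 277 against 625 for the control of that design, while on U74Av2 it read 98.1 and 56.5 against 69.8.

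**Figure D3:**
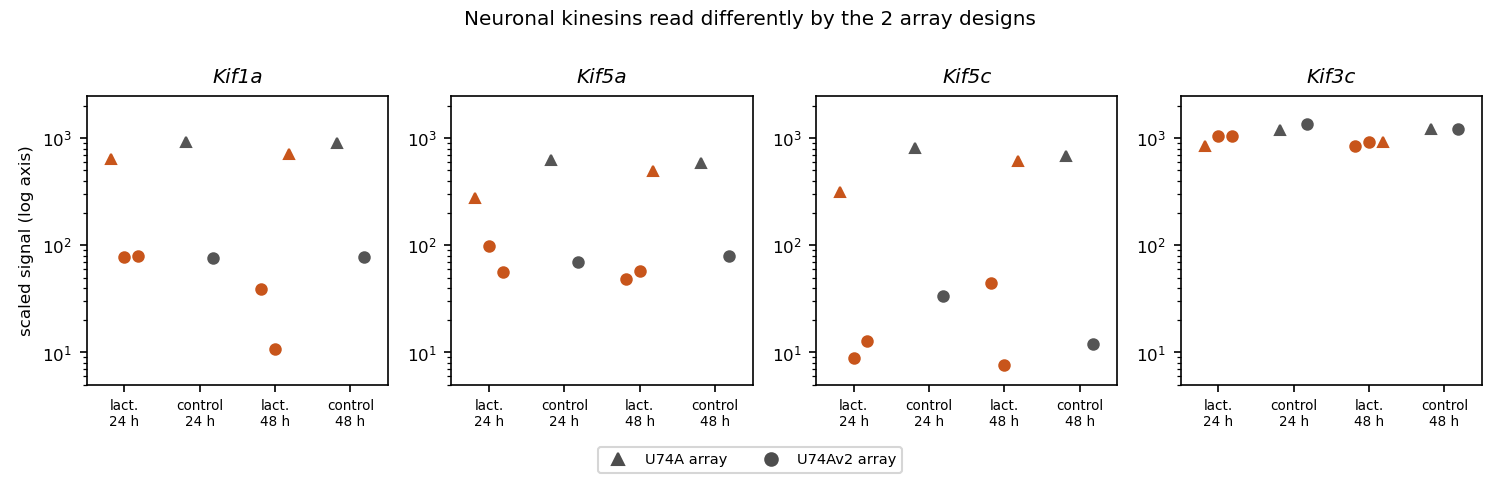
Scaled signal (log axis, arbitrary units) of Kif1a, Kif5a, Kif5c and Kif3c on each array, by agent and time, with U74A arrays as triangles and U74Av2 arrays as circles. Kif1a, Kif5a and Kif5c read 13.1, 7.28 and 30.4 times higher on U74A than on U74Av2 on average, whereas the ratio for Kif3c is 0.97.

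The remaining transport genes were dim or did not pass. Kif1b, a carrier of mitochondria and synaptic vesicle precursors, had the largest positive change of the group at 48 h (0.70 ± 0.29, adjusted p = 0.155). Its signals were 30.4, 92.1 and 177 with lactacystin, against 78.8 and 25.5 in control. A second Kif1b probe set, found on U74Av2 alone and not tested, did not follow it. That probe set read 90.1 and 66.9 with lactacystin at 48 h, against 79.7 in control, and 107.7 and 99.3 at 24 h, against 54.3. Klc4, another light chain, read 472, 509 and 500.1 with lactacystin at 48 h, against 386 and 355 in control. Its groups did not overlap, as for 17.6% of all named genes in that direction, but its change of 0.37 ± 0.15 did not pass (adjusted p = 0.141). Kif9, a kinesin of motile cilia, read 95.0, 59.5 and 115 with lactacystin, against 49.8 and 50.6 in control, with a change of 0.58 ± 0.27 at 48 h (adjusted p = 0.213) and -0.24 ± 0.27 at 24 h. Kifc3, a minus-end-directed kinesin, had changes of -0.20 ± 0.25 at 24 h and -0.03 ± 0.25 at 48 h. Kif16b, a carrier of early endosomes, and Kifc2, a minus-end-directed kinesin of dendrites, did not pass the filter, and their signals ran from 20.0 to 54.4 and from 19.0 to 39.6 over the 10 arrays.

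Dynein and dynactin genes were represented by 11 genes, of which 10 passed the filter and Dynlt3, a light chain with signals of 16.3 to 70.2, did not. None was called at 24 h, against 15.3% of all named genes, and 1 fell at 48 h, against 3.7%. The changes were small: at 24 h they lay between -0.39 and 0.35 with a median of -0.06, and at 48 h between -0.59 and -0.03 with a median of -0.19. All 10 were negative at 48 h, as were 2475 of the 5541 changes of all named genes. With quantile normalization 9 were, and without control 48 h replicate 2 only 7 were. The 24 h median was 0.04 without control 24 h replicate 1 and on the U74Av2 arrays, and -0.12 without control 24 h replicate 2. The 48 h median was -0.36 with median scaling, which also lowered the median of all tested probe sets. Minus that median, it was -0.25 with median scaling and -0.23 in the main fit.

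Dync1i1 encodes the neuron-enriched intermediate chain, which joins dynein to dynactin. Its signals at 48 h were 2751, 2422 and 2115 with lactacystin, against 3055 and 3152 in control, with no overlap. Of all named genes, 10.6% were lower without overlap at 48 h. At 24 h they were 2063, 2731 and 2804 with lactacystin, against 2521 and 3262 in control, with overlap. The change was -0.41 ± 0.11 at 48 h (adjusted p = 0.0399), -0.24 ± 0.11 at 24 h (0.178) and -0.32 ± 0.08 over both times (0.0218). At 48 h the call was lost in 16 of 24 alternatives, with adjusted p-values of up to 0.450, and leaving out any 1 array except lactacystin 24 h replicate 1 ended it (0.302 without control 48 h replicate 1, where the change was -0.26). Over both times it was lost in 7 of 23, with an adjusted p of 0.0557 without lactacystin 24 h replicate 1, 0.0621 without control 24 h replicate 2 and 0.0656 without control 48 h replicate 1. Dync1i2, the intermediate chain of most cell types, had changes of -0.04 ± 0.14 at 48 h and -0.11 ± 0.14 at 24 h.

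Dync1h1, the heavy chain that carries the motor, varied widely. At 48 h it read 3771, 2950.0 and 2384 with lactacystin, against 3233 and 5161 in control, with overlap. At 24 h it read 2176, 6056 and 5794 with lactacystin, against 3009 and 4687 in control. The U74A arrays read lower than the U74Av2 arrays, with a ratio of means of 0.570. The change of -0.59 ± 0.19 at 48 h was the largest of the dynein genes and did not pass (adjusted p = 0.0817), and at 24 h it was 0.04 ± 0.19.

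Dynll2 stood out by its course in time. It encodes an LC8 light chain, which also binds many partners outside dynein. With lactacystin its signals were 2754, 2803 and 4644 at 48 h, against 6559.7, 5568 and 5692 at 24 h. In control they were 5788 and 3658 at 48 h, against 5779 and 4212 at 24 h. Every 48 h lactacystin array thus lay below every 24 h lactacystin array, while the controls of the 2 times overlapped. The share of all named genes separated between these lactacystin groups was not computed. Under lactacystin it fell by 0.84 on the log2 scale at 48 h against 24 h (SE 0.11, adjusted p = 0.000569). It was the only motor gene called in that comparison (1 of 25), in which 12.2% of all named genes were called, 5.58% lower and 6.61% higher. In control the change with time was -0.10 ± 0.13 (adjusted p = 0.951). The call under lactacystin was lost in 1 alternative, without the design covariate (adjusted p = 0.126).

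Against control, Dynll2 had a change of 0.35 ± 0.12 at 24 h (adjusted p = 0.0757) and of -0.39 ± 0.12 at 48 h (0.0604), and neither passed. The signs were opposite, and the difference between the times was -0.74 ± 0.17, with an adjusted p of 0.0600. No motor gene passed in the test of that difference, in which 1.25% of all named genes did. A second Dynll2 probe set, found on U74Av2 alone, read 499 and 422 with lactacystin at 48 h, against 617 in control, and 668 and 766 with lactacystin at 24 h, against 558 in control. It was below the control at 48 h and above it at 24 h. It was not tested. Dynll1, the other LC8 gene, whose probe set is of the same shared type as that of Kifc1, read 10291, 9761 and 8252 with lactacystin at 48 h, against 10356 and 10893 in control, with a change of -0.22 ± 0.09 (adjusted p = 0.159), and at 24 h of -0.03 ± 0.09.

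Dctn1, the large dynactin subunit that binds microtubules and dynein, read 1518, 1543 and 1553 with lactacystin at 24 h, against 1721 and 2332 in control. The groups did not overlap, as for 19.1% of all named genes in that direction at 24 h. The change was -0.39 ± 0.13 at 24 h (adjusted p = 0.0743) and -0.23 ± 0.13 at 48 h. Dctn2 (dynamitin), Dctn3, Dctn5 and the light chain Dynlrb1 had changes between -0.10 and 0.15 at 24 h and between -0.17 and -0.03 at 48 h. A dimmer Dctn2 probe set fell at 48 h against 24 h under lactacystin (-0.40 ± 0.11, adjusted p = 0.0337), whereas the brighter one, also of the shared type, had a change of -0.12 ± 0.10 (adjusted p = 0.503). Of the 2 unnamed Dynlt1-family probe sets, 1 fell over both times by 0.32 on the log2 scale (adjusted p = 0.0419), and it read 938, 747 and 1624 with lactacystin at 48 h, against 2065 and 1139 in control.

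**Figure D4:**
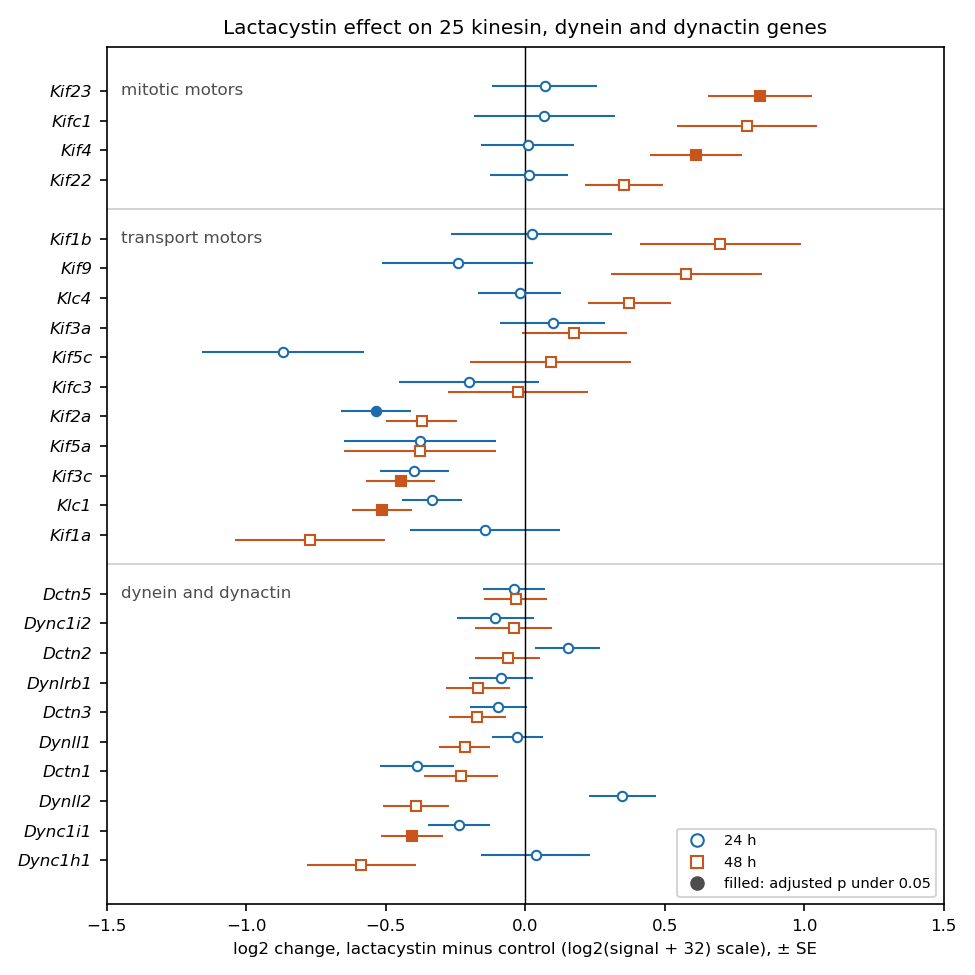
Log2 change (lactacystin minus control, log2(signal + 32) scale) with its SE for the 25 tested motor genes at 24 h (circles) and 48 h (squares), by role, with filled symbols for an adjusted p under 0.05. The 4 mitotic kinesins lie at 0.01 to 0.07 at 24 h and at 0.35 to 0.84 at 48 h, and all 10 dynein and dynactin genes lie below 0 at 48 h.

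Over all 25 tested motor genes, 5 were called at 48 h, 2 higher and 3 lower, against 10.8% of all named genes. Over both times 4 were called, all lower, against 17.6% (9.85% rose). The comparisons at 24 h, at 48 h and over both times share arrays, so that their counts do not support each other. Without regard to the test, the signals of the lactacystin and control groups did not overlap for 5 of 25 genes at 24 h, all lower (of all named genes, 19.1% were lower and 18.1% higher in this sense), and for 10 at 48 h, 3 higher and 7 lower (17.6% and 10.6% of all named genes). The 3 that were higher were Kif4, Klc4 and Kif9, of which Kif9 passed the filter through its 48 h lactacystin signals. In control cultures none of the 25 was called between 48 h and 24 h, and none of the 6984 probe sets was (limma, with 391 at an unadjusted p under 0.05).

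Adaptors and regulators of the motors were tested for 20 of 38 listed genes. At 24 h 3 fell and none rose, against 6.68% and 8.66% of all named genes, and 1 fell without control 24 h replicate 2 or without the design covariate. The 3 were Kifap3 (above), the kinesin-1 scaffold Mapk8ip1 (-0.86 ± 0.18, adjusted p = 0.00799) and the kinesin-1 adaptor Fez1 (-0.39 ± 0.11, 0.0417). At 48 h 1 rose and 1 fell, against 7.13% and 3.7% of all named genes. None fell in 12 of 24 alternatives, among them leaving out any 1 of the 48 h arrays or lactacystin 24 h replicate 2, while 7 fell with median scaling and 4 without lactacystin 24 h replicate 1. None rose without control 48 h replicate 1 or on the U74Av2 arrays alone. Nde1, a dynein regulator needed for spindle orientation and progenitor division, averaged 605 with lactacystin and 299 in control and rose by 0.95 ± 0.16 (adjusted p = 0.00387). Pafah1b1 (Lis1), which binds dynein together with Nde1, averaged 2330.0 with lactacystin and 3012 in control and fell (-0.39 ± 0.11, adjusted p = 0.0416). Ywhaz, a 14-3-3 protein, had a change of -0.36 ± 0.11 at 48 h that did not pass (0.0583).

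A further 10 probe sets of the same gene families had values on U74Av2 alone, with 2 lactacystin arrays and 1 control array at each time, and were not tested. Kif2c, a mitotic kinesin that removes faulty chromosome attachments, read 247 and 248 with lactacystin at 48 h, against 162 in control, and 206 and 200.2 with lactacystin at 24 h, against 247 in control. It was above the single control at 48 h and below it at 24 h. Kif1c, a transport kinesin, read 381 and 386 with lactacystin at 48 h, against 216 in control, and 263 and 213 at 24 h, against 237. Kif3b read 107 and 126 with lactacystin at 24 h, against 269.9 in control, and 104 and 143 at 48 h, against 87.9. Kif5b, the conventional kinesin heavy chain of most tissues, read 958 and 1256 with lactacystin at 48 h, against 949 in control. Dctn6 read 1601 and 1438 with lactacystin at 48 h, against 1179.5 in control. The other 5 were further probe sets of Kif1b, Kif3a, Kif9 and Dynll2, and one of Dynlt1b that read 0.8 to 13.3.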

How the data were processed

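The authors deposited intensities: 1 linear signal for each probe set, made with MAS5 according to the submitters' processing notes. The MAS5 version is not given in the sources used here. U74A and U74Av2 arrays came in separate deposited tables, and the 9977 probe sets found in both, without 66 controls, were used. Each array was scaled to a 2% trimmed mean of 500, 32 was added and log2 taken, which understates changes of dim genes. The 30% of probe sets with the lowest mean were left out, and 6984 were tested. Tests used limma 3.58.1 in R 4.3.3 (lmFit, eBayes with trend, two-sided) with 4 groups of agent and time, adjusted for array design (5 residual degrees of freedom). Effects over both times were adjusted for time and design (6). P-values were adjusted by Benjamini-Hochberg over all 6984, and the threshold was 0.05. The procedure was tested on simulated data. Depth does not apply to arrays, and their number limits the precision.

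Genes were named from the platform annotation, and each gene was represented by its brightest probe set on average. Every member gene is named. Values on each array are given for genes called in any comparison and for the largest change of each role. Other genes come from the lists of partners, adaptors and cell type markers, up to 4 each by size at 48 h, unless stated. Members, lists and promoter motifs were chosen with earlier results of these data known. Promoter windows are from RefSeq (24 of the 28 genes matched). Alternatives tried were other pseudocounts, scalings, filters, probe set choices, variance models and array weights, no design covariate, a replicate block, U74Av2 arrays alone, the arrays of 1 comparison alone, and each array left out in turn.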

Additional observations from a re-analysis of the deposited data

How the results depend on the processing

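Of 3514 single-gene values under alternatives, 3386 kept their side of the threshold, among them 180 values not called in either case that changed sign. Of the rest, 63 lost a call, 65 gained one and none reversed a call. Called motor genes numbered 1 of 25 at 24 h, and 3 with quantile normalization, with a filter leaving out the lowest 50%, on U74Av2 arrays alone or with array quality weights, 2 with the replicate block or robust variances, 6 with the arrays of that time alone, and 0 without the design covariate. Leaving out 1 array gave 0 to 3. At 48 h the count was 5, and 9 with median scaling, 3 with quantile normalization, 2 without a filter, on U74Av2 alone or with the arrays of that time alone, and 0 without the design covariate. The replicate block gave 4, and leaving out 1 array 1 to 7. Median scaling moved the median of all probe sets at 48 h to -0.11 from 0.04. For the difference between the times the count of 0 became 1 (Dynll2) with median scaling, the 50% filter or array weights, and 0 to 2 with 1 array left out. For 48 h against 24 h under lactacystin the count of 1 became 2 with every probe set counted, with median scaling or on U74Av2 alone, 6 with array weights, 0 without the design covariate, and 1 to 3 with 1 array left out. Over both times it stayed between 3 and 5, with 3 under the replicate block. In control it was 0 throughout. Replicate numbers were not taken as pairs: the correlation of deviations from the group means was 0.664, 0.516 and 0.455 for same-numbered arrays of the same design and -0.612 for the 1 pair of different designs. The replicate block changed Kif5c at 24 h and Kif1a and Dync1h1 at 48 h to called, and Kif4, Kif3c and Dync1i1 at 48 h to not called. Calls over all 6984 probe sets were 1038 at 24 h, against 248 without the design covariate and 310 to 1106 with 1 array left out. At 48 h they were 722, against 110 and 210 to 823. Those lowest values at 48 h were 236 without control 48 h replicate 1 and 210 without replicate 2. Groups of 2 and 3 arrays limit the precision, and the cause of these shifts was not tested.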
